A study of Bos taurus with 6 samples.

Results

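Respiratory complexes II to V are the membrane machines that carry electrons from succinate and ubiquinol to oxygen and use the resulting proton gradient to make ATP. They were represented here by 43 genes of the 9155 that the array annotation names. A gene was included if the annotation gave 1 of its probe sets exactly 1 symbol and that symbol was SDHA to SDHD, CYC1 or CYCS, or began with UQCR, ATP5, or COX4 to COX8. This took 53 probe sets of 24016, of which the one with the highest mean over the arrays stood for its gene. Complex II had 4 genes, complex III 9, complex IV 13 and complex V 17. No probe set carried the single symbol of CYCS, COX4I2, COX6B1, COX7B, COX7B2, COX8C or ATP5MK, so cytochrome c itself and these subunits were not analysed here.

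RNA from bovine blastocysts at day 7 was hybridized to 6 Affymetrix Bovine Genome arrays, and the labels do not give the number of embryos per array. The 3 superovulated arrays held blastocysts that had stayed until day 7 in Simmental heifers given superovulation treatment and inseminated. The 3 synchronized arrays held blastocysts from donors treated and inseminated in the same way, flushed at the 2-cell stage on day 2 and transferred by endoscopy into recipients that had been synchronized but not superovulated. Donors of both groups were therefore superovulated, and only the synchronized embryos were flushed early and moved. The comparison sets embryos left in the tract of a superovulated animal against embryos moved into the tract of a synchronized one. An effect of the tract and an effect of flushing and transfer cannot be told apart in it.

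Complex II (succinate dehydrogenase) joins the tricarboxylic acid cycle to the chain and pumps no protons, complex III passes electrons from ubiquinol to cytochrome c, complex IV (cytochrome c oxidase) passes them to oxygen, and complex V is the ATP synthase. Apart from complex II, which is wholly encoded in the nucleus, each is built from nuclear-encoded subunits and a few encoded by mitochondrial DNA. In cattle, as in other mammals, oxidative phosphorylation is known to rise as the embryo forms a blastocyst, when the trophectoderm spends ATP on ion pumping to fill the cavity.

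Signals are log2 values as the authors deposited them, and differences are superovulated minus synchronized. Array medians lay between 2.75 and 2.80, and probe sets with a mean not above log2 4 are called near background. Between 1457 and 1894 probe sets exceeded log2 4 in the superovulated group, against 973, 1850 and 1184 on synchronized arrays 1 to 3. The 18 bacterial hybridization control probe sets averaged 12.68 ± 0.02 over the superovulated arrays, against 13.20 ± 0.32 over the synchronized ones (SD, n = 3 each; two-sided exact permutation p = 0.1, which is as low as 3 arrays against 3 can go). Of 11 measured blastocyst markers KRT18 and DAB2 were called higher (18.2%, against 1.3% of all named genes). GATA6, LGALS1 and POU5F1 were higher without overlap but not called, at differences of 2.12, 1.55 and 0.81. The other 6 overlapped, with ATP1B1 at -0.32, and KRT8 and SOX2 stayed between 2.27 and 2.44 on every array. The median difference of the 11 was 0.12. The summed level of the 11 was 46.7 to 47.5 on superovulated and 34.4 to 38.5 on synchronized arrays. Summed levels overlapped between the groups for 6 oviduct and uterus markers (20.0 to 24.6 and 19.6 to 23.9), 10 cumulus and granulosa markers (33.7 to 39.1 and 32.6 to 40.3) and 7 blood markers (18.4 to 18.8 and 18.6 to 19.3). Of these 23, the complement gene C3 and the collagen gene COL1A2 were called higher, and OVGP1, the defining oviduct gene, stayed between 2.19 and 2.26. COL1A2 was near background, at 2.93 to 3.76. Some other members varied widely and overlapped between the groups. MSX1 ran from 3.80 to 10.38 (difference -2.06) and TNFAIP6 from 2.99 to 8.47 (-1.75), both highest on synchronized array 2. PTGS2 differed by 1.29 without overlap and was not called. Whether any of these differences had a part in the results below was not tested. Fewer cells that express a gene and less RNA per cell cannot be told apart in RNA taken from whole embryos.

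In limma 5 of the 43 genes were higher in the superovulated group than in the synchronized group at an adjusted p below 0.05, and 0 were lower. These were the complex III gene UQCR11, the complex IV genes COX5A and COX6C, and the complex V genes ATP5IF1 and ATP5PD. They make up 11.6% of the 43 genes. Over all probe sets 0.695% were called higher and 0.0208% lower, together 0.716%. Over all named genes at 1 probe set each the shares were 1.3% higher and 0.0218% lower, and over the named genes with a mean above log2 4 they were 8.65% and 0.216%.

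Every superovulated array read above every synchronized array in 29 of the 43 genes, and the reverse held for 0. The share was 67.4%, against 9.06% of all named genes and 44.6% of named genes above log2 4. The reverse held for 7.86% and 3.03% of the same genes. The count without overlap came to 1 of 4 genes in complex II, 6 of 9 in complex III, 7 of 13 in complex IV and 15 of 17 in complex V. The median difference was 0.25 in complex II, 0.78 in complex III, 1.01 in complex IV and 1.54 in complex V, beside -0.02 over all named genes and 0.65 over those above log2 4. These medians moved with the processing. A second quantile normalization gave 0.17, 0.79, 0.72 and 1.0 for complexes II, III, IV and V, and averaging the probe sets of a gene gave 0.25, 0.78, 0.65 and 1.31, so that complex III stood above complex IV in both. The median of complex II was 0.08 without superovulated array 3. A mean above log2 4 was held by 1 of 4 genes in complex II, 4 of 9 in complex III, 8 of 13 in complex IV and 12 of 17 in complex V. Among those genes alone the medians were 0.38, 2.27, 1.80 and 1.645, so the order of complexes III, IV and V was reversed. The difference between complexes was not tested.

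**Figure D1:**
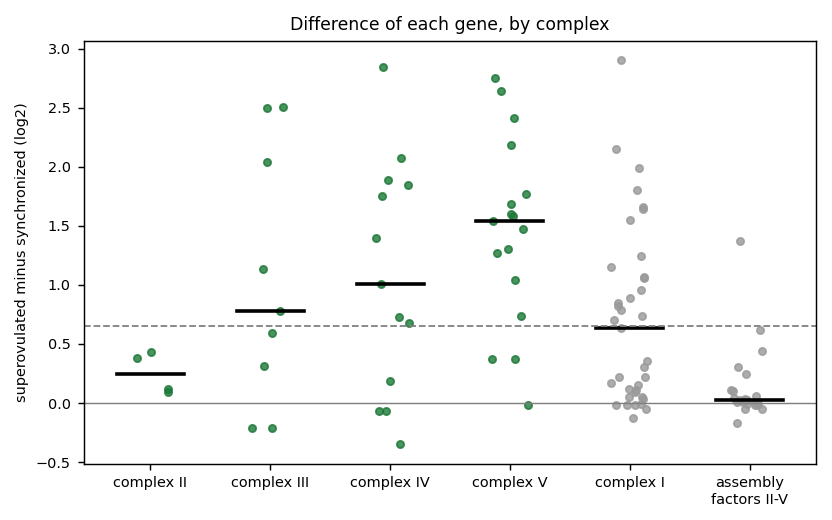
Superovulated minus synchronized difference (log2, vertical axis) of each gene, as 1 point per gene, for complexes II to V (green) and, in grey, complex I subunits and assembly factors of complexes II to V; black bars are medians and the dashed line is the median of 0.65 over all named genes above log2 4. Complex II lies between 0.10 and 0.43, and the other complexes spread from below 0 to above 2.

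The calls depended on single arrays. Without superovulated array 1, 2 or 3 the member genes called were 3, 0 and 0, and without synchronized array 1, 2 or 3 they were 3, 2 and 2. COX5A was called in every one of these fits except those without superovulated array 2 or 3. Of the other 4 genes, UQCR11 remained only without synchronized array 3, COX6C and ATP5PD only without superovulated array 1, and ATP5IF1 only without synchronized array 1. COX4I1 and ATP5MC3 were called in 1 of these fits each, without synchronized array 2 and synchronized array 1.

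All 4 complex II genes differed by less than 0.5, and 0 were called. SDHA, the flavoprotein that oxidizes succinate, read 3.11, 3.40 and 3.77 in superovulated blastocysts (arrays 1 to 3), against 2.91, 2.98 and 3.10 in synchronized ones, a difference of 0.43 (95% interval -0.03 to 0.89). Its arrays did not overlap, but both groups lay near background. SDHB, the iron-sulfur subunit that hands the electrons on, read 2.56, 2.69 and 2.82 in superovulated blastocysts, against 2.61, 2.51 and 2.60 in synchronized ones, so the groups overlapped. SDHD, the small membrane anchor that binds haem, varied little, at 3.94, 3.80 and 3.92 in superovulated blastocysts, against 3.80, 3.69 and 3.88 in synchronized ones. Its difference was 0.10 (-0.07 to 0.26), and after a second quantile normalization it was -0.11.

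SDHC, the large membrane anchor, was the 1 gene of complex II with a mean above log2 4. It read 4.24, 4.49 and 5.29 in superovulated blastocysts, against 2.66, 5.74 and 4.48 in synchronized ones. The highest and the lowest of the 6 values were thus both synchronized, and the difference of 0.38 had an interval from -1.81 to 2.57. Without synchronized array 1 it was -0.44, and with bright probe sets centred it was -0.31. The interval therefore held differences of both signs and values above the median of every complex.

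In complex III 1 of 9 genes was called, a small subunit. The 5 small subunits had differences of 0.31 to 2.51, a range that holds those of the 2 redox subunits. The 2 core proteins stayed near background on every array. UQCR11, the smallest subunit, read 6.63, 6.80 and 6.68 in superovulated blastocysts, against 3.93, 3.99 and 4.67 in synchronized ones. It rose by 2.51 (1.94 to 3.07; limma adjusted p = 0.0299), and the superovulated arrays lay within 0.2 of each other.

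UQCR10, another small subunit near cytochrome c1, read 5.66, 5.79 and 5.20 in superovulated blastocysts, against 3.03, 2.47 and 3.66 in synchronized ones, a difference of 2.50 (1.60 to 3.39) at an adjusted p of 0.0777 in limma. It was low on synchronized array 2, on which 20 of the 43 genes had their highest synchronized value. UQCRB, the ubiquinone-binding protein, read 7.61, 7.83 and 7.62 in superovulated blastocysts, against 4.77, 6.22 and 5.95 in synchronized ones, with a difference of 2.04 and an adjusted p of 0.187 in limma. Its second probe set gave 1.50, also without overlap, and after a second quantile normalization the difference was 1.08. UQCRH, the hinge protein that helps cytochrome c1 meet cytochrome c, overlapped between the groups at 4.79, 4.82 and 5.48 in superovulated blastocysts, against 4.99, 4.55 and 3.76 in synchronized ones. Its difference of 0.60 was 0.03 after a second quantile normalization and -0.10 with bright probe sets centred.

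CYC1, which is cytochrome c1, read 3.59, 4.27 and 3.80 in superovulated blastocysts, against 2.47, 2.61 and 3.17 in synchronized ones, a difference of 1.14 with no overlap and an adjusted p of 0.292 in limma. UQCRFS1, the Rieske iron-sulfur protein, differed by 0.78, and UQCRQ, a small subunit beside cytochrome b, by 0.31, both without overlap and near background. The core proteins UQCRC1 and UQCRC2 had differences of -0.21 and -0.21. Their second probe sets gave 0.31 each, so these probe sets gave no settled direction.

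**Figure D2:**
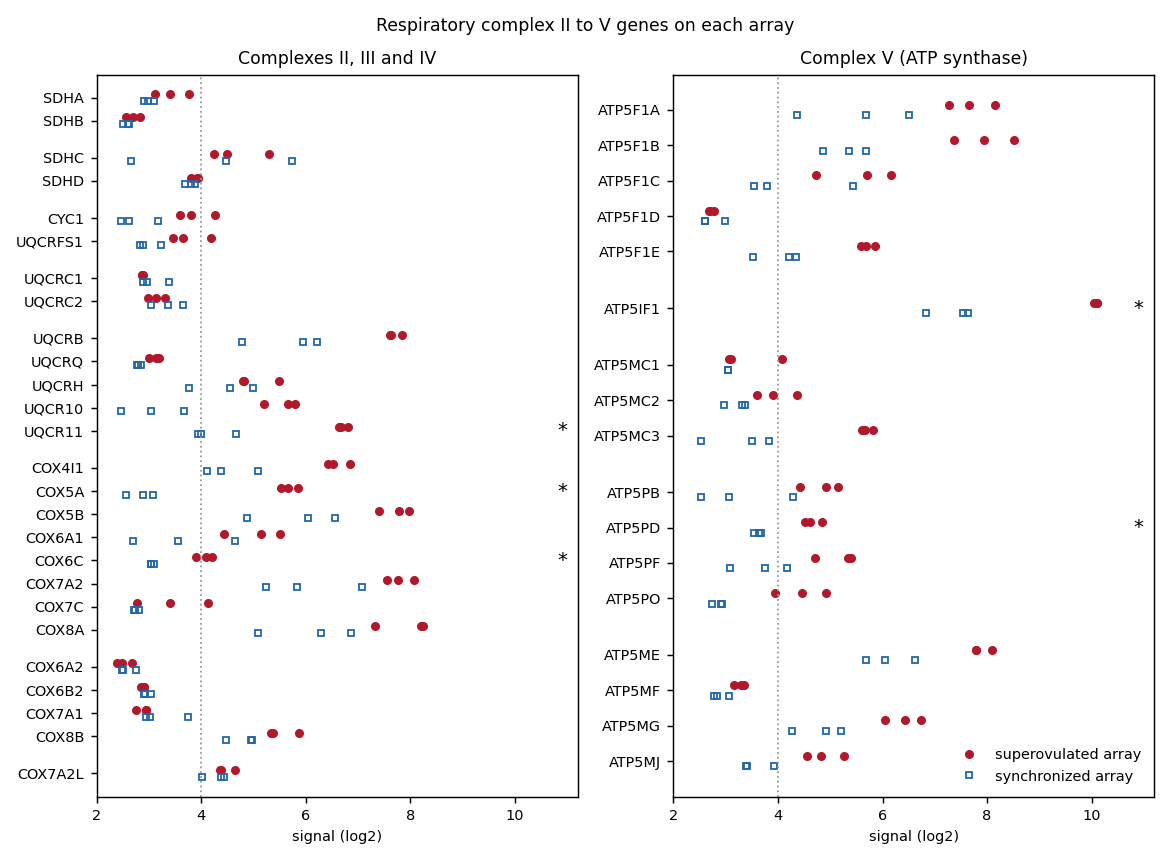
Signal (log2, horizontal axis) of each of the 43 genes on the 3 superovulated arrays (filled red circles) and the 3 synchronized arrays (open blue squares), in blocks by role; the dotted line marks log2 4 and an asterisk a limma adjusted p below 0.05. For UQCR11, COX5A and ATP5IF1 the superovulated arrays lie to the right of the synchronized arrays, and the isoforms COX6A2, COX6B2 and COX7A1 stay at the left edge in both groups.

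In complex IV 2 of the 8 subunits found in most tissues were called higher and 6 had no overlap between the groups. Their differences ran from 0.68 to 2.84. Of the 4 isoforms of particular tissues 0 were called, and 3 stayed near background. COX5A, a matrix-facing subunit next to the catalytic core, read 5.52, 5.85 and 5.66 in superovulated blastocysts, against 2.56, 2.88 and 3.07 in synchronized ones. It rose by 2.84 (2.43 to 3.25; limma adjusted p = 0.0139), the largest difference among the 43 genes. All its synchronized values lay below log2 4 and all its superovulated values above it.

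COX6C, a single-span membrane subunit, rose by 1.01 (0.80 to 1.22; limma adjusted p = 0.0268), with 3.90, 4.09 and 4.20 in superovulated blastocysts, against 3.03, 3.09 and 3.04 in synchronized ones. The groups did not overlap, but the mean of the 6 arrays was not above log2 4, and the second COX6C probe set read 2.92 to 2.94 on every array. The average of both COX6C probe sets differed by 0.50. COX4I1, the subunit through which ATP is known to inhibit the enzyme, read 6.42, 6.52 and 6.85 in superovulated blastocysts, against 4.10, 5.08 and 4.38 in synchronized ones, a difference of 2.08 (1.34 to 2.82) with a limma adjusted p of 0.0761. It was among the 3 genes called after a second quantile normalization, with COX5A and COX6C.

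COX5B, the zinc-binding subunit, read 7.39, 7.97 and 7.78 in superovulated blastocysts, against 4.87, 6.56 and 6.04 in synchronized ones, a difference of 1.89 and an adjusted p of 0.355 in limma. COX8A, the general form of the smallest subunit, read 7.33, 8.20 and 8.23 in superovulated blastocysts, against 5.08, 6.86 and 6.29 in synchronized ones, a difference of 1.84. COX7A2, the general form of subunit 7A, read 7.56, 8.07 and 7.77 in superovulated blastocysts, against 5.24, 7.07 and 5.83 in synchronized ones, a difference of 1.75. After a second quantile normalization the differences of COX5B, COX8A and COX7A2 were 0.94, 0.84 and 0.72. All 3 genes were without overlap in the deposited values, and in all 3 the synchronized arrays kept the same order, array 1 lowest and array 2 highest. COX6A1, the general form of subunit 6A, overlapped, with 4.44, 5.14 and 5.50 in superovulated blastocysts, against 2.69, 4.64 and 3.56 in synchronized ones. That COX6A1 probe set is of a type that Affymetrix marks as matching transcripts of more than 1 gene, and the other COX6A1 probe set read 2.89 to 3.25. COX7C, a small general subunit, overlapped as well, at a difference of 0.68.

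COX6A2 and COX7A1, the forms of heart and skeletal muscle, and COX6B2, a form of the testis, read near background in both groups. COX6A2 had 2.49, 2.68 and 2.38 in superovulated blastocysts, against 2.50, 2.49 and 2.75 in synchronized ones. COX7A1 had 2.95, 2.95 and 2.75 in superovulated blastocysts, against 3.74, 2.94 and 3.02 in synchronized ones, and COX6B2 stayed between 2.85 and 3.04 on all 6. Of the 5 muscle markers measured, 0 were above log2 4 in mean.

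COX8B, known in cattle as the muscle form of subunit 8, gave discordant probe sets. One read 5.37, 5.87 and 5.33 in superovulated blastocysts, against 4.96, 4.95 and 4.48 in synchronized ones, a difference of 0.73 without overlap (limma adjusted p = 0.486), which was 0.04 after a second quantile normalization. The other read 2.70 to 2.72 in superovulated blastocysts, against 2.70 to 2.85 in synchronized ones. COX7A2L, a relative of subunit 7A that joins complexes III and IV into supercomplexes, overlapped between the groups despite a mean above log2 4. It read 4.37, 4.36 and 4.64 in superovulated blastocysts, against 4.37, 4.43 and 4.02 in synchronized ones, a difference of 0.18 (-0.18 to 0.55), which was -0.23 after a second quantile normalization.

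**Figure D3:**
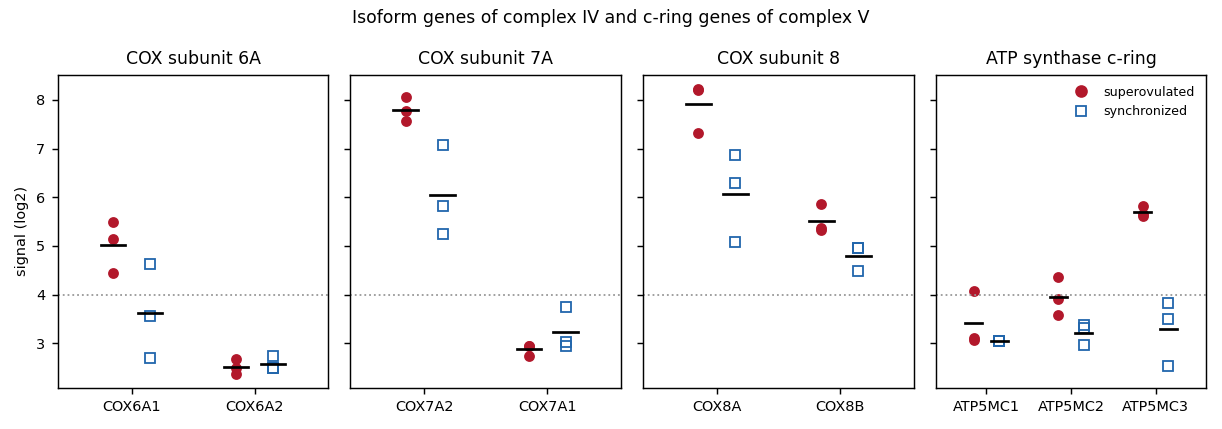
Signal (log2, vertical axis) on each superovulated array (filled red circles) and each synchronized array (open blue squares) for isoform genes of subunits 6A, 7A and 8 of complex IV and for the 3 c-ring genes of complex V; black bars are group means and the dotted line marks log2 4. COX6A2 and COX7A1 lie below the line on all arrays, and ATP5MC3 lies above it only on the superovulated arrays.

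Complex V had the highest share of genes without overlap, 15 of 17, and the 2 that overlapped were ATP5F1C and ATP5F1D. ATP5IF1, the inhibitor that blocks ATP hydrolysis by the synthase when the proton gradient fails, had the tightest superovulated values of the called genes. It read 10.04, 10.1 and 10.11 in superovulated blastocysts, against 6.83, 7.53 and 7.64 in synchronized ones. It rose by 2.75 (2.16 to 3.34; limma adjusted p = 0.0284), with the lowest superovulated value well above the highest synchronized one.

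The F1 head holds the catalytic sites. ATP5F1B, the catalytic beta subunit, read 7.36, 8.52 and 7.94 in superovulated blastocysts, against 4.86, 5.35 and 5.68 in synchronized ones, a difference of 2.64 (1.69 to 3.59) with a limma adjusted p of 0.0777. ATP5F1A, the alpha subunit, read 7.28, 8.16 and 7.65 in superovulated blastocysts, against 4.36, 6.51 and 5.68 in synchronized ones, a difference of 2.18 with an adjusted p of 0.441 in limma. The groups of both genes were separate. A second quantile normalization gave 1.72 for ATP5F1B and 1.32 for ATP5F1A. Second probe sets of ATP5F1A and ATP5F1B lay at background, between 2.38 and 2.62 on all arrays. ATP5F1E, the epsilon subunit of the central stalk, differed by 1.69 without overlap (limma adjusted p = 0.0828), and ATP5F1C, the gamma subunit that turns inside the head, by 1.27 with overlap on synchronized array 2. ATP5F1D, the delta subunit of the same stalk, gave no usable signal, at 2.60 to 2.98 on its brighter probe set.

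The 3 c-ring genes encode precursors of the rotor subunit c, whose mature protein is known to be the same for all of them. ATP5MC3 read 5.66, 5.82 and 5.61 in superovulated blastocysts, against 2.53, 3.83 and 3.50 in synchronized ones, a difference of 2.41 (1.49 to 3.33) with a limma adjusted p of 0.0876. ATP5MC2 read 3.91, 3.59 and 4.36 in superovulated blastocysts, against 2.97, 3.37 and 3.31 in synchronized ones, a difference of 0.74. ATP5MC1 read 3.06, 4.08 and 3.11 in superovulated blastocysts, against 3.04, 3.04 and 3.05 in synchronized ones, so that only superovulated array 2 stood apart. Without that array the difference of ATP5MC1 was 0.04.

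The peripheral stalk holds the head still against the turning rotor. ATP5PD, its subunit d, rose by 1.04 (0.80 to 1.28; limma adjusted p = 0.0304), with 4.84, 4.52 and 4.62 in superovulated blastocysts, against 3.67, 3.54 and 3.64 in synchronized ones. Its synchronized arrays spanned 0.13, the narrowest range among the 25 member genes above log2 4, and with bright probe sets centred its difference was 0.35. The other stalk genes, ATP5PO (1.58), ATP5PB (1.54) and ATP5PF (1.47), had larger differences, no overlap and limma adjusted p between 0.118 and 0.600. All 4 stalk genes therefore separated the groups, and 1 was called.

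Among the small membrane subunits, ATP5ME, which takes part in joining the synthase into dimers, read 7.79, 8.10 and 7.78 in superovulated blastocysts, against 6.04, 5.69 and 6.62 in synchronized ones, a difference of 1.77 (1.10 to 2.45) with a limma adjusted p of 0.0876. After a second quantile normalization that of ATP5ME was 0.68. ATP5MG, also of the dimer interface, differed by 1.60, ATP5MJ by 1.31 and ATP5MF by 0.37, all without overlap. ATP5MF lay near background. The second ATP5MG probe set, at 2.88 to 3.44, differed by 0.19.

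**Figure D4:**
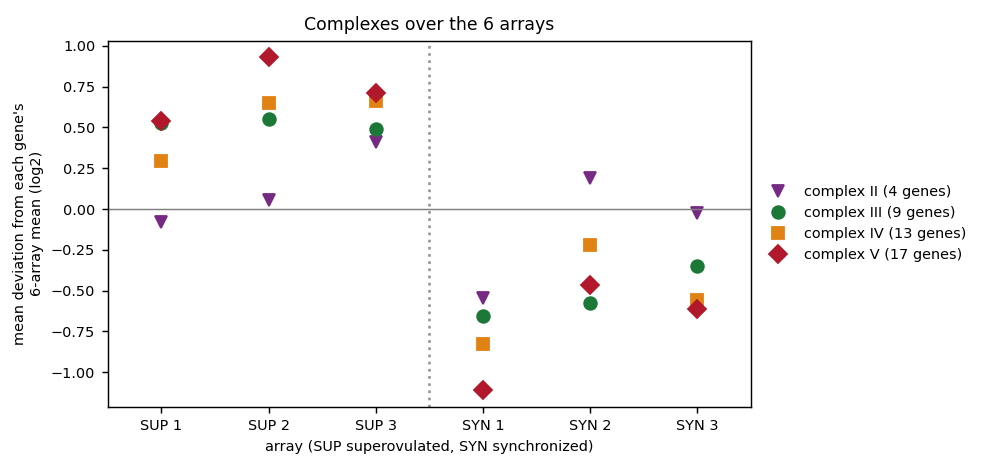
Mean deviation of the genes of each complex from their own 6-array means (log2, vertical axis) on superovulated arrays 1 to 3 (SUP) and synchronized arrays 1 to 3 (SYN); each symbol is the mean over the genes of 1 complex. Complexes III, IV and V are above 0 on all superovulated and below 0 on all synchronized arrays, and complex II crosses over.

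Set beside each other over the 6 arrays, complexes III, IV and V lay on opposite sides of 0 in the 2 groups and complex II did not. The mean deviation of complex V genes from their own 6-array means was 0.54, 0.93 and 0.71 in superovulated blastocysts, against -1.11, -0.46 and -0.61 in synchronized ones. For complex IV it was 0.29, 0.65 and 0.66 in superovulated blastocysts, against -0.83, -0.22 and -0.56 in synchronized ones. Complex III differed in its lack of a high synchronized array 2, with 0.53, 0.55 and 0.49 in superovulated blastocysts, against -0.65, -0.57 and -0.35 in synchronized ones. Complex II gave -0.08, 0.05 and 0.41 in superovulated blastocysts, against -0.55, 0.19 and -0.03 in synchronized ones, and its largest deviations came from SDHC. The other 3 complex II genes were above log2 4 on no array. The contrast of complex II with the other complexes therefore has SDHC as its only usable gene. These deviations are a description and were not tested.

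Array brightness matched these patterns only in part. Superovulated array 3 had the most probe sets above log2 4, 1894, but complex III had its lowest superovulated value there, 0.49. On the synchronized arrays complexes IV and V, like that count, were lowest on array 1 and highest on array 2. Complex III was highest on synchronized array 3. Synchronized array 1, with the fewest bright probe sets, was the lowest synchronized array in 26 of the 43 genes (60.5%), against 67.4% of named genes above log2 4 and 22.4% of all named genes. Named genes above log2 4 had mean deviations of 0.15, 0.36 and 0.60 in superovulated blastocysts, against -0.95, 0.22 and -0.39 in synchronized ones. On synchronized array 2 the number of probe sets above log2 4, 1850, lay within the superovulated range. All 3 superovulated arrays read above that array in 33 of the 43 genes, against 50.7% of named genes above log2 4 and 25% of all named genes. By complex this was 3 of 4 genes in complex II, 7 of 9 in complex III, 7 of 13 (53.8%) in complex IV and 16 of 17 in complex V. Against that array alone the median difference was 0.19, 0.53, 0.63 and 1.19 for complexes II, III, IV and V, beside 0.21 over named genes above log2 4. Among the called genes it was 2.80 for COX5A, 2.71 for UQCR11, 2.55 for ATP5IF1, 1.12 for ATP5PD and 0.97 for COX6C. Among the others it was 1.19 for ATP5F1A, 0.73 for COX7A2, 0.55 for ATP5PB and 0.09 for ATP5F1C, each smaller than against the whole synchronized group. It was larger than against that group for other uncalled genes, such as UQCR10 (3.08), ATP5ME (2.20) and CYC1 (1.28). The part of array brightness in the results was not tested.

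Related genes outside these complexes were read in the same fit. Complex I passes electrons from NADH to ubiquinone. Its list of 37 genes was taken by symbol (NDUF, then A, B, C, S or V and a number). It includes NDUFA4 and NDUFA4L2, whose place in complex I was not checked. Of the 37, 5 (13.5%) were called higher and 0 lower, 20 (54.05%) had no overlap, and the median difference was 0.64. These shares were 11.6% and 67.4% for complexes II to V. They were 1.3% and 9.06% over all named genes, and 8.65% and 44.6% over those above log2 4. The called genes were NDUFV1, NDUFB8, NDUFA1, NDUFC2 and NDUFA9, with differences of 1.15, 1.55, 1.99, 1.64 and 1.06. The complex I list had a larger part of its genes near background, 26 of 37, than complexes II to V, 18 of 43. Of 22 measured assembly factors of complexes II to V, 0 were called by limma and 2 reached an unadjusted p below 0.05. Over all 9155 named genes 1.3% were called higher, and 918 had an unadjusted p below 0.05 in limma. Of the 22 assembly factors 0 had a mean above log2 4, and their median difference was 0.03. HCCS, the enzyme that attaches haem to cytochromes c and c1, read 3.61, 4.82 and 4.36 in superovulated blastocysts, against 2.86, 2.83 and 2.99 in synchronized ones (difference 1.37, limma adjusted p = 0.294). Of 8 regulators of respiratory genes 0 were called by limma and 0 reached an unadjusted p below 0.05. In lists this short such counts are no result about the regulators or the assembly factors. The transcription factor gene NRF1 and the coactivator gene PPARGC1A were near background, and YY1 and TFB1M, at differences of 0.92 and 1.16, overlapped between the groups. No probe set carried the symbol of a mitochondrially encoded subunit.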

How the data were processed

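RNA was purified with a kit for very small samples and biotin was added in a second in vitro transcription, per the labels' protocols. The log2 values were deposited by the authors, 1 per probe set and array, and were made with GCRMA per the submitters' processing notes; the sources used here give neither its version nor whether the 6 arrays were normalized together. The labels do not tie the arrays of a group to separate animals, so a p-value reflects spread among arrays that may be technical only. The array number limits the precision.

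After removal of 112 control probe sets, 24016 were fitted with limma 3.58.1 in R 4.3.3 (lmFit, eBayes, group as the only term, two-sided), with Benjamini-Hochberg adjustment over all of them and a call at 0.05. Intervals are 95% intervals from this fit. Symbols came from GEO's platform annotation; all 53 member probe sets matched the ARS-UCD2.0 gene table by gene identifier, with 0 symbols changed. The fit was tested on 10 simulated data sets with 200 changed probe sets each, all from those with a mean above log2 4. It called 9.3% of those changed by log2 1 and 25.9% of those changed by log2 2. False calls averaged 2.2 per run. A gene without a call may therefore still differ.

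The members, lists and roles were chosen with earlier results of these data known. Values on every array are given for called genes, for the 3 largest other differences and 2 highest means per complex, for isoform pairs, c-ring genes, complex II and CYC1; COX6B2 among these 28 genes is given by its range. COX7A2L, 1 of the other 15 members, and HCCS were added after their values were seen, and the rest are given by difference or range.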

Additional observations from a re-analysis of the deposited data

How the results depend on the processing

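All 5 called genes kept their direction in every setting in which they were tested, which groups without overlap fix when an array is left out. The count of called genes, 5 of 43, was 3 after a second quantile normalization (COX4I1, COX5A and COX6C), 3 with an intensity trend, 6 with a gene's probe sets averaged and 5 with arrays centred on their median. Among probe sets above log2 4 it was 18 of 25 genes tested, and 9 when arrays were in addition centred on those probe sets. Of all 1406 probe sets above log2 4, 441 and 229 were called in the same fits. The cut uses the mean over all 6 arrays, so genes such as COX5A (synchronized mean 2.84) pass it only through their superovulated values. With the replicate number as a block limma called 0 member genes and 0 probe sets. In that limma fit 28 member genes and 1382 probe sets had an unadjusted p below 0.05, and the lowest adjusted p of a member was 0.106. Deviations of same-numbered arrays correlated at 0.601, -0.543 and -0.438, and those of superovulated array 3 and synchronized array 2 at 0.736. The deviations within a group sum to 0, so these correlations are tied to each other and cannot settle whether arrays were paired. Leaving out 1 array gave 0 to 3 called genes, 26 to 137 called probe sets and 26 to 96 called higher, in place of 172 and 167. Called probe sets numbered 28 (27 higher) after a second quantile normalization, 50 (49 higher) with an intensity trend, and 441 (413 higher) among those above log2 4. With centring on these there were 229 calls, 177 (77.3%) higher and 52 lower, in place of 97.1% higher; centring took 0.69 from every difference. Without synchronized array 2, 96 of 137 calls (70.1%) were higher.

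The complex medians ranged over the fits without 1 array from 0.08 to 0.39 for complex II, 0.72 to 0.93 for complex III, 0.93 to 1.09 for complex IV and 1.21 to 1.72 for complex V. A second quantile normalization moved complex IV to 0.72 and complex V to 1.0. Averaging probe sets moved complex IV to 0.65. Complex III, at 0.79 and 0.78, was above complex IV in both. The quantile step moved 13 gene differences by over 1.5 times, among them ATP5MG (0.90). Among probe sets above log2 4 complex III had 2.27, complex IV 1.80 and complex V 1.645. With centring complex II, then SDHC alone, had -0.31, complex III 1.58 and complex V 0.95. Of the 43 genes 35 kept their sign in every setting in which they were tested. Signs turned for COX6A2, at -0.145 to 0.0217 over the fits without 1 array (above 0 without superovulated or synchronized array 3), for SDHC, at -0.437 to 1.10 over the same fits (below 0 without synchronized array 1) and -0.31 with centred bright probe sets, for UQCRH with that centring (-0.10), for SDHD after a second quantile normalization (-0.11), for COX7A2L after it (-0.23) and with that centring (-0.51), and for UQCRC1 and UQCRC2 with probe sets averaged (0.05 each). ATP5F1D, at -0.02, was above 0 without synchronized array 3 (0.11), after quantile normalization (0.01) and with arrays centred on their median (0.01). Genes near background on all arrays give no usable difference here, and no detection calls were analysed. The causes of these changes were not tested.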
